A study of Mus musculus with 10 samples.

Results

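The 10 genes described here make up the interleukin 1 (IL-1) family and inflammasome set of mouse macrophages, and they were taken by symbol (Il1a, Il1b, Il1rn, Il18, Il18bp, Nlrp3, Pycard, Casp1, Casp4 and Gsdmd). All 10 were found among the 45318 gene identifiers of the table, and all 10 were among the 13171 genes that passed the filter on low values. The RNA came from bone marrow derived macrophages (BMDM) of C57BL/6 mice, measured by stranded mRNA sequencing in 10 libraries, in 5 groups of 2. Untreated cells carried the label WT or the label Tlr4 -/- (KO). Cells of both labels were also taken after a pre-treatment of 6 h in a control medium, which held 5% FBS (fetal bovine serum) and 2% BSA (bovine serum albumin). The last group was KO cells given Poly(I:C), a synthetic RNA of the double-stranded kind. Its labels give no duration, serum or albumin for the Poly(I:C) medium and no medium or time for untreated cells, and WT cells with Poly(I:C) were not analysed here. The KO label covers 3 of the 5 groups, and nothing in the labels says how the allele was made. The series asks how loss of TLR4, the receptor for bacterial lipopolysaccharide, bears on inflammatory signalling in macrophages.

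IL-1 alpha and IL-1 beta bind 1 shared receptor and start an inflammatory program in many tissues. IL-1 beta and IL-18 are made as inactive precursors, and macrophages release them after an inflammasome has formed: a sensor such as NLRP3 recruits the adaptor ASC (gene Pycard), which activates caspase-1, and caspase-1 cuts both the precursors and gasdermin D, whose freed fragment forms pores in the cell membrane. Before this step the cell must be primed, that is, receptor signals must first raise the transcripts of the precursor and of the sensor. The secreted IL-1 receptor antagonist (Il1rn) and IL-18 binding protein (Il18bp) block the cytokines outside the cell. Transcript levels do not show cutting or release, which were not measured.

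The deposited totals were 25.2 to 26.0 M units per library in untreated cells, 25.7 and 26.7 M in KO cells after the control medium, and 41.1 to 51.7 M in the other 2 groups. Replicates correlated at 0.992 to 0.994 across genes on the log scale. The labels do not say whether the 2 libraries of a group are from different cultures or mice, so every p-value measures only the spread between samples that may be technical replicates. Tlr4 itself was at 60.1 and 69.1 CPM (the value of a gene on a scale set by its library's total) in untreated WT and at 44.4 and 44.9 CPM in untreated KO libraries, which did not pass the test (log2 -0.53, SE 0.141, limma adjusted p = 0.346). With 1 value per gene, the table cannot show whether the reads lie in a deleted exon, so the genotypes are used as labelled. Summed macrophage markers (9 of 9 in the table) lay at 24004 to 28279 CPM over all 10 libraries. Single markers differed both ways (limma adjusted p under 0.05). In WT control against untreated WT 4 of the 9 were higher and 2 lower, with 65.8% of all tested genes called. In KO control against untreated KO 3 were higher and 4 lower, with 20% of all tested genes called. In these bulk samples, fewer cells that express a gene and less RNA of it per cell cannot be told apart.

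RefSeq start sites (GRCm38.p6) were found for 9 of the 10 genes, and Gsdmd had no entry. The 250 bases before the start are shown for Il1b, which rose most in WT cells with the control medium, for Nlrp3 and Casp4, which hold a match to the kB consensus bound by NF-kB factors, for Il1a with an AP-1 match, and for Pycard, which did not move with the others. Capitals mark the motif matches, and each line runs 5′ to 3′ on the gene's own strand. The windows are chr2:129309973-129310222 (minus strand), chr2:129371140-129371389 (minus), chr11:59541319-59541568 (plus), chr7:127993868-127994117 (minus) and chr9:5308599-5308848 (plus).
Il1a: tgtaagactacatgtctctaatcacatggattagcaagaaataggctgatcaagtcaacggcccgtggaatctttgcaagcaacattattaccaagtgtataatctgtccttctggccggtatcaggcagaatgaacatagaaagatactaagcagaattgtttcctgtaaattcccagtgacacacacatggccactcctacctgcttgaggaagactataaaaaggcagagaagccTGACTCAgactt
Il1b: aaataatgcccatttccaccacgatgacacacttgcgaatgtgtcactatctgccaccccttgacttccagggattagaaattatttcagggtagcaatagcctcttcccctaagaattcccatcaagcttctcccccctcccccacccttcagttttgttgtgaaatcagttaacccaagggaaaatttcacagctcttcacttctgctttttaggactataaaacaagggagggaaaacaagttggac
Nlrp3: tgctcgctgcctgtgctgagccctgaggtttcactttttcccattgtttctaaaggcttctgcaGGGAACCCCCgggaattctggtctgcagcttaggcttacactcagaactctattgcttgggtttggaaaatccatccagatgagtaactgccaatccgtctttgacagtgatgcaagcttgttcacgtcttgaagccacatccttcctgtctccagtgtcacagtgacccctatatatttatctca
Pycard: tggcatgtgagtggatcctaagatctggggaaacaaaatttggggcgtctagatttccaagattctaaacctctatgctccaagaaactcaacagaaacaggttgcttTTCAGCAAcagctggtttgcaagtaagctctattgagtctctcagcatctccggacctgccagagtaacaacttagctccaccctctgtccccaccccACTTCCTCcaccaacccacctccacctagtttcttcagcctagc
Casp4: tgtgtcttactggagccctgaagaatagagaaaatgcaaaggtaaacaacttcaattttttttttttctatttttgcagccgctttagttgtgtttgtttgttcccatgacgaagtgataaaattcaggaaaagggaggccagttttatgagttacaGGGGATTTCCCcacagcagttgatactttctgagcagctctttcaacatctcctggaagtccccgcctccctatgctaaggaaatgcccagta

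In the Casp4 window overlapping kB matches lie 93 to 83 bases before the start, and in the Nlrp3 window, which is the second of 2 Nlrp3 starts, a kB match on the minus strand lies 186 to 177 bases before it. The AP-1 letters (TGANTCA) lie 12 to 6 bases before the Il1a start and 141 to 135 bases before the first of 3 Il1rn starts. The letters TTGCNNAA, bound by C/EBP factors, were found before Il18bp (49 to 42 bases) and Pycard (142 to 135 bases, minus strand), and GAGGAAGT, bound by PU.1, before Pycard (44 to 37 bases, minus strand). No match to any of the 6 motifs searched on both strands was found in the windows of Il1b, Il18 and Casp1, nor in the other windows of Il1rn and Nlrp3. These letters are common: of 32851 such windows, 3.9% held the kB consensus, 6.75% AP-1, 9.56% C/EBP, 2.44% PU.1, 2.98% the core of the interferon-stimulated response element and 7.02% the GAS letters TTCNNNGAA. A match is a description of the sequence only.

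Across the 5 groups, 9 of the 10 genes showed the same broad pattern: low in untreated cells of both labels, high in WT cells after the control medium, well below that in KO cells after the same medium, and high in KO cells with Poly(I:C). Pycard was the gene that did not follow it. Below, a rise, fall or response with the control medium means the difference from untreated cells of the same label. The labels do not say whether time or handling also differed, so the part of the medium itself was not tested.

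**Figure D1:**
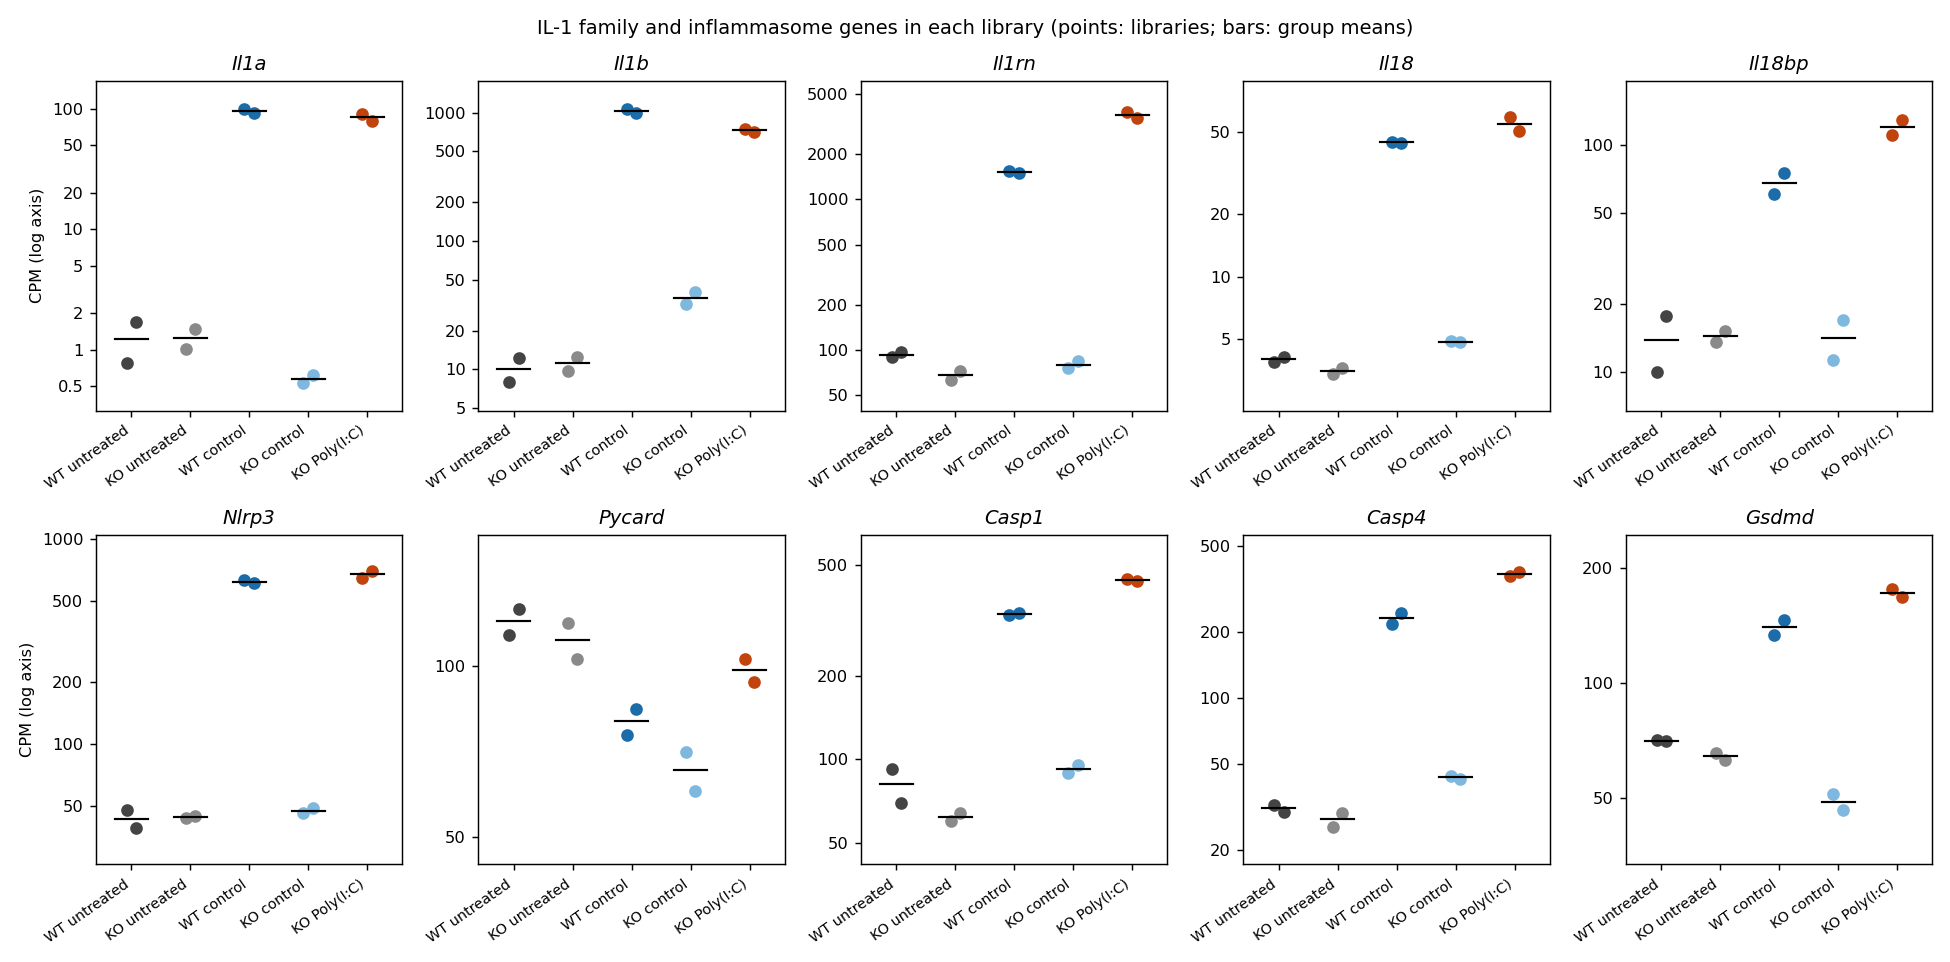
Level of each of the 10 genes in CPM (log axis, a separate scale for each gene) in the 10 libraries; points are libraries and bars are means of the 2 libraries of a group. In 9 panels the libraries of WT control and of KO Poly(I:C) stand above the rest, as for Il1b at 999 and 1067 CPM in WT control against 32.1 and 40.2 CPM in KO control, while Pycard is highest in untreated libraries.

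The 2 IL-1 agonists had the widest range. Il1b (ENSMUSG00000027398, chromosome 2, 129364570 to 129371139, minus strand, GRCm38) was at 7.86 and 12.2 CPM in untreated WT, 9.72 and 12.5 CPM in untreated KO, 1067 and 999 CPM in WT control, 32.1 and 40.2 CPM in KO control and 754 and 703 CPM in KO Poly(I:C) libraries. Untreated libraries of the 2 labels overlapped, KO control lay above both, and the other 2 groups lay far above all of them. In WT cells Il1b was higher in the control medium than untreated by 6.71 log2 (SE 0.191, limma adjusted p = 2.76e-09), a 103-fold change of the mean. In KO cells it was higher by 1.70 log2 (SE 0.191, limma adjusted p = 0.000366), or 3.26-fold.

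Il1a (ENSMUSG00000027399, chromosome 2, 129299610 to 129309972, minus strand) encodes the other agonist and lies 54.6 kb from Il1b. It was at 0.783 and 1.69 CPM in untreated WT, 1.01 and 1.49 CPM in untreated KO, 100.2 and 92.3 CPM in WT control, 0.528 and 0.616 CPM in KO control and 90.1 and 79.6 CPM in KO Poly(I:C) libraries. KO control libraries were the lowest of all 10, at deposited values of only 16 and 19 units, and did not overlap untreated KO libraries. WT cells rose by 6.26 log2 with the control medium (SE 0.289, limma adjusted p = 5.22e-08), a 77.9-fold change. In KO cells Il1a fell by 0.99 log2 (SE 0.289, limma adjusted p = 0.038). This call was lost with a pseudocount of 1 (adjusted p = 0.0807), without the filter (0.0789), on the rlog table (0.0516), with only these 2 groups fitted (0.0614), and without any of 7 single libraries (0.0564 to 0.219).

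The antagonist of both, Il1rn (ENSMUSG00000026981, chromosome 2, 24336853 to 24351494, plus strand), was already present in untreated cells. Its levels were 89.8 and 96.8 CPM in untreated WT, 63.2 and 73.2 CPM in untreated KO, 1549 and 1489.6 CPM in WT control, 75.7 and 84.1 CPM in KO control, and 3824 and 3495 CPM in KO Poly(I:C) libraries. Poly(I:C) libraries thus had the highest level, above WT control by 1.27 log2 (SE 0.0917, limma adjusted p = 7.98e-05). In WT cells Il1rn was higher in the control medium than untreated by 4.02 log2 (SE 0.0917, limma adjusted p = 6.78e-10). In KO cells the difference of 0.23 log2 (95% interval 0.03 to 0.44) did not pass over all genes (limma adjusted p = 0.109). The 6 annotated transcripts include secreted and intracellular forms, which 1 value per gene does not separate.

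Il18 (ENSMUSG00000039217, chromosome 9, 50554827 to 50581840, plus strand) encodes the second cytokine that caspase-1 cuts. It was at 3.88 and 4.10 CPM in untreated WT, 3.37 and 3.60 CPM in untreated KO, 44.9 and 44.3 CPM in WT control, 4.89 and 4.80 CPM in KO control and 58.8 and 50.8 CPM in KO Poly(I:C) libraries. WT cells rose by 3.45 log2 (SE 0.11, limma adjusted p = 6.56e-09) and KO cells by 0.46 log2 (SE 0.11, limma adjusted p = 0.0159) with the control medium. The KO call was lost with only these 2 groups fitted (limma adjusted p = 0.0737) and without any 1 of the 4 libraries compared (0.0509 to 0.083).

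Its soluble inhibitor Il18bp (ENSMUSG00000070427, chromosome 7, 102014885 to 102018690, minus strand) was at 9.96 and 17.7 CPM in untreated WT, 13.5 and 15.1 CPM in untreated KO, 61.0 and 74.9 CPM in WT control, 11.3 and 16.8 CPM in KO control and 111 and 129 CPM in KO Poly(I:C) libraries. The first 2 groups and KO control overlapped one another. With the control medium WT cells rose by 2.34 log2 (SE 0.255, limma adjusted p = 2.12e-05), while KO cells differed from untreated by -0.05 log2 (95% interval -0.62 to 0.51, limma adjusted p = 0.908). Il18bp shares 80 exon bases (2.64% of its exon length) with Numa1 on the opposite strand, a gene at 61.2 to 145 CPM, and the sources used here do not say whether the authors' counting used the strand.

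Nlrp3 (ENSMUSG00000032691, chromosome 11, 59541568 to 59566956, plus strand), the sensor, was at 48.0 and 39.2 CPM in untreated WT, 44.0 and 44.7 CPM in untreated KO, 627 and 608 CPM in WT control, 46.3 and 49.2 CPM in KO control and 646 and 696 CPM in KO Poly(I:C) libraries. Apart from WT control and KO Poly(I:C), all libraries lay between 39.2 and 49.2 CPM. The rise in WT cells was 3.83 log2 (SE 0.094, limma adjusted p = 9.56e-10). In KO cells the difference between control medium and untreated was 0.10 log2 with a 95% interval of -0.11 to 0.31 (limma adjusted p = 0.49), an interval that leaves out the WT rise.

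The adaptor gene Pycard (ENSMUSG00000030793, chromosome 7, 127989708 to 127993867, minus strand) was at 113 and 126 CPM in untreated WT, 119 and 103 CPM in untreated KO, 75.7 and 84.1 CPM in WT control, 70.7 and 60.4 CPM in KO control and 103 and 93.9 CPM in KO Poly(I:C) libraries. Both groups in the control medium lay below all untreated libraries. Pycard fell by 0.58 log2 in WT cells (SE 0.108, limma adjusted p = 0.000854) and by 0.76 log2 in KO cells (SE 0.108, limma adjusted p = 0.00131). These 2 falls did not differ by the test of the interaction (log2 -0.18, 95% interval -0.52 to 0.16, limma adjusted p = 0.374). KO Poly(I:C) was 0.59 log2 above KO control (limma adjusted p = 0.000738), but with scaling by library totals alone this became -0.13 (adjusted p = 0.3). The difference of KO control from WT control, -0.29 log2 (limma adjusted p = 0.0405), likewise turned to 0.20 (adjusted p = 0.129) under that scaling. The annotated exons of Pycard overlap 485 bases of Gm45205 on the opposite strand, for which no value was used here.

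The effector caspases lie next to each other on chromosome 9, with 1.56 kb between the end of Casp1 (ENSMUSG00000025888, 5298517 to 5307265) and the start of Casp4 (ENSMUSG00000033538, 5308828 to 5336783), both on the plus strand. Casp1, which cuts the cytokine precursors, was at 92.6 and 69.8 CPM in untreated WT, 60.2 and 64.1 CPM in untreated KO, 330.0 and 337 CPM in WT control, 88.9 and 95.05 CPM in KO control and 447 and 439 CPM in KO Poly(I:C) libraries. KO control libraries overlapped untreated WT libraries and lay above untreated KO libraries. Casp1 was higher in the control medium than untreated by 2.05 log2 in WT cells (SE 0.113, limma adjusted p = 1.69e-07) and by 0.56 log2 in KO cells (SE 0.113, limma adjusted p = 0.00734). Without the second KO control library the rise in KO cells was 0.52 and was not called (adjusted p = 0.0661).

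Casp4, known in mice as caspase-11, senses lipopolysaccharide in the cytosol and cuts gasdermin D directly. It was at 32.4 and 29.98 CPM in untreated WT, 25.6 and 29.8 CPM in untreated KO, 218 and 246 CPM in WT control, 43.8 and 42.6 CPM in KO control and 362 and 378 CPM in KO Poly(I:C) libraries. Each group after a pre-treatment lay apart from the others and above all untreated libraries. The rise with the control medium was 2.89 log2 in WT cells (SE 0.0926, limma adjusted p = 6.56e-09) and 0.64 log2 in KO cells (SE 0.0926, limma adjusted p = 0.00142). KO control was also above untreated WT, by 0.47 log2 (limma adjusted p = 0.00608).

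Gsdmd (ENSMUSG00000022575, chromosome 15, 75862327 to 75867408, plus strand), which encodes the pore former gasdermin D, had the smallest rises of the 9 genes. Its levels were 70.8 and 70.5 CPM in untreated WT, 65.8 and 62.8 CPM in untreated KO, 134 and 146 CPM in WT control, 51.1 and 46.6 CPM in KO control and 176 and 168 CPM in KO Poly(I:C) libraries. KO control libraries were the lowest. In WT cells Gsdmd was higher in the control medium than untreated by 0.98 log2 (SE 0.076, limma adjusted p = 1.78e-06), and in KO cells Gsdmd fell by 0.40 log2 (SE 0.076, limma adjusted p = 0.00602). Without the second KO control library the fall in KO cells was -0.33 log2 and was not called (adjusted p = 0.0706).

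In untreated cells, which ask what the genotype label alone changes, no member passed the test between KO and WT, where 0.167% of all tested genes were called. By limma, 2 of the 10 had an unadjusted p under 0.05, as had 1146 of the 13171 genes. These 2 were Il1rn, lower in both KO libraries (log2 -0.46, SE 0.0917, limma adjusted p = 0.161), and Casp1 (log2 -0.37, SE 0.113, limma adjusted p = 0.374). For the 2 agonists the intervals of the difference were wide, from -0.56 to 0.73 log2 for Il1a and from -0.26 to 0.59 log2 for Il1b. The median over the 10 genes was -0.12 log2, against -0.01 over all genes. Without the second untreated WT library, 1 member was called: Casp1, at -0.58 log2 (limma adjusted p = 0.0226).

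Between untreated WT cells and WT cells in the control medium all 10 members were called, 9 higher and 1 (Pycard) lower, where 65.8% of all tested genes were called (33.1% higher and 32.8% lower). The median member difference was 3.17 log2, against -0.01 over all genes. Over all genes the split was 4357 higher and 4315 lower. It was 2267 and 7689 with scaling by totals alone, which moved the median of all genes to -0.52, and 5157 and 3423 with the deposited scaling, which moved it to 0.15. The 10 members kept their direction and call under both.

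Markers of neutrophils, cells that also make IL-1 beta and that a marrow culture can hold, moved with the same groups. The summed level of the 11 listed genes was 148 to 186 CPM in untreated WT, 173 to 193 CPM in untreated KO, 499 to 594 CPM in WT control, 183 to 199 CPM in KO control and 690.3 to 696 CPM in KO Poly(I:C) libraries. In WT control against untreated WT, 6 of the 9 tested ones were higher (S100a8, S100a9, Camp, Ltf, Ngp and Csf3r) and 0 lower. Of all tested genes 33.1% were called higher and 32.8% lower in this comparison. Most of this sum was Csf3r, the G-CSF receptor, at 413 and 479 CPM in WT control. The calprotectin gene S100a8 rose by 2.60 log2, from 5.11 and 10.1 to 41.7 and 46.8 CPM. Ly6g was at 0 in KO control and at most 0.22 CPM in any library, and the granule genes Mpo and Elane, which mark early stages of the lineage, were at most 2.32 and 2.33 CPM. Stromal and endothelial markers summed to 30.2 to 39.9 CPM in untreated WT and 54.9 to 71.5 CPM in WT control libraries, and B cell markers to 46.1 to 53.0 and 10.4 to 11.4 CPM. Markers of T and NK cells summed to at most 0.275 CPM, with Cd3e, Cd3g and Ncr1 at 0 in all libraries, and those of mast cells and basophils to at most 1.18 CPM. Dendritic cell markers summed to 0.596 to 0.626 CPM in untreated WT and 1.76 to 2.1 CPM in WT control, with Cd209a at 0 in all libraries, and erythroid and platelet markers to 62.2 to 153 and 28.4 to 59.3 CPM. The part of these markers in the results was not tested.

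In KO cells the comparison of control medium with untreated gave a mixed picture. In it 4 members were higher (Il1b, Il18, Casp1 and Casp4), 3 lower (Il1a, Pycard and Gsdmd) and 3 did not pass (Il1rn, Il18bp and Nlrp3). Of all tested genes 20% were called, 10.9% higher and 9.08% lower. The median member difference was 0.17 log2, against 0.00 over all genes. The number called was 3 without the second KO control library, where Il1b, Casp4 and Pycard were left. Il1b, at 1.70 log2, was the only member to change by more than 1 log2 in this comparison.

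**Figure D2:**
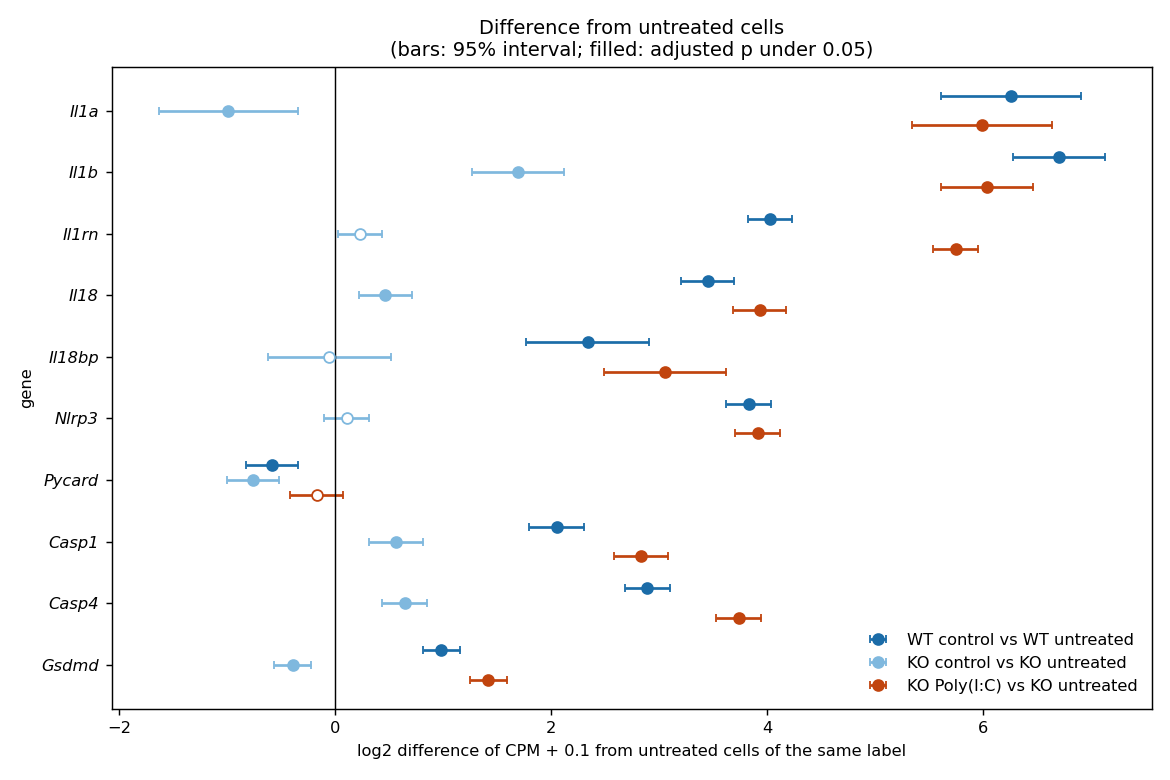
Difference from untreated cells of the same label, in log2 of CPM + 0.1, for each of the 10 genes; points are estimates from 2 libraries a group, bars are 95% intervals, and filled points passed at an adjusted p under 0.05. The KO control points lie between -0.99 (Il1a) and 1.70 (Il1b), while WT control and KO Poly(I:C) points of the genes other than Pycard lie between 0.98 and 6.71.

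After the control medium all 10 members were lower in KO than in WT cells, where 61.1% of all tested genes were called (30.2% lower and 30.9% higher). The median was -2.80 log2, against 0.03 over all genes. Il1a had the largest difference, at -7.16 log2 (SE 0.289, limma adjusted p = 2.67e-08), a 168-fold lower mean. Il1b was 28.6-fold lower and Il1rn 19.01-fold lower in KO cells, followed by Nlrp3 at 12.9-fold, Il18 at 9.20-fold, Casp4 at 5.38-fold, Il18bp at 4.84-fold, Casp1 at 3.63-fold and Gsdmd at 2.86-fold. The libraries of the 2 groups did not overlap for any of the 10 genes. How many of all tested genes also did not overlap was not counted, so this is no trait particular to the members. Pycard, 1.22-fold lower, lost its call without the filter (limma adjusted p = 0.0687), without the second WT control library (0.211) and without the second KO control library (0.278), and turned to higher with scaling by totals alone, as given above. For all genes together the split was 4072 higher and 3975 lower, against 7672 and 2077 with totals alone (median of all genes 0.50) and 2963 and 4934 with the deposited scaling (median -0.14).

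The difference between the 2 responses to the control medium, KO minus WT, was called negative for 9 of 10 members, all but Pycard. Of all tested genes 45.7% were called in this test, 23.7% in the same direction and 22% in the other. For Il1a and Gsdmd the call in KO cells was itself a fall (log2 -0.99 and -0.40), against rises of 6.26 and 0.98 in WT cells. The interaction was largest for Il1a (log2 -7.25, SE 0.409, limma adjusted p = 9.01e-07) and smallest among the 9 for Gsdmd (log2 -1.38, SE 0.108, limma adjusted p = 6.08e-06). These 9 were called under each of the 18 alternatives run. Over all genes 2904 interactions were positive and 3121 negative, against 6518 and 1695 with totals alone (median 0.52) and 2057 and 3816 with the deposited scaling (median -0.12).

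Poly(I:C) in KO cells went with levels of 9 of the 10 genes far above those in KO control cells. Against KO control all 10 members were higher (9 with totals alone, where Pycard turned to -0.13), where 69.4% of all tested genes were called (32.5% higher and 36.9% lower), with a median of 3.29 log2 against -0.06 over all genes. Il1a was higher by 6.98 log2 (SE 0.289, limma adjusted p = 1.71e-08) and Il1rn by 5.52 log2 (SE 0.0917, limma adjusted p = 9.98e-11). Il1b was 20.2-fold, Nlrp3 14.1-fold, Il18 11.3-fold, Casp4 8.57-fold, Il18bp 8.54-fold, Casp1 4.81-fold and Gsdmd 3.52-fold higher. All-gene splits were 4279 higher and 4860 lower, 2081 and 8882 with totals alone (median -0.76), and 5203 and 3758 with the deposited scaling (median 0.13). Neutrophil markers again moved with the members, with 7 of 9 tested ones higher and 0 lower. Stromal and endothelial markers were higher in sum (from 30.2 to 34.8 CPM to 77.9 to 78.7 CPM), with 3 of 7 called higher and 4 not called. Dendritic cell markers (2 of only 3 tested higher, from 0.487 to 0.66 CPM to 2.23 to 2.36 CPM) were higher in sum too. So were erythroid and platelet markers (2 of only 3 tested higher, from 18.8 to 19.2 CPM to 34.4 to 41.5 CPM), while the 1 tested B cell marker was lower. Of 9 macrophage markers 4 were higher, 2 lower and 3 not called. The part of all these markers in the results was not tested either.

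Against untreated KO cells, which share the genotype label and differ in treatment, 9 members were higher in KO Poly(I:C) and Pycard did not pass. The labels do not say whether medium or time also differed. Of all genes 72.1% were called (34.5% higher and 37.6% lower). The median was 3.83 log2, against -0.04 over all genes. The largest rise was that of Il1b, 6.03 log2 (SE 0.191, limma adjusted p = 2.53e-09), and the smallest that of Gsdmd, 1.42 log2 (SE 0.076, limma adjusted p = 8.14e-08). Pycard differed by -0.17 log2 (95% interval -0.42 to 0.07, limma adjusted p = 0.174). It was called lower at -0.93 log2 with totals alone (adjusted p = 1.66e-05) and stood at 0.023 with the deposited scaling. Over all genes 4544 were higher and 4955 lower, against 2218 and 8703 with totals alone (median -0.77) and 5436 and 3997 with the deposited scaling (median 0.15). This comparison and the previous one share the Poly(I:C) libraries.

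KO Poly(I:C) and WT control differ in both genotype label and treatment, so their difference isolates neither. Of the 10 members 5 were higher in KO Poly(I:C) (Il1rn, Il18bp, Casp1, Casp4 and Gsdmd), 0 were lower and 5 did not pass, where 23.7% of all tested genes were called (11.9% in each direction). Casp4 was higher by 0.67 log2 (SE 0.0926, limma adjusted p = 0.00122) and Casp1 by 0.41 log2 (SE 0.113, limma adjusted p = 0.0276). For the agonists the differences were -0.18 log2 for Il1a (95% interval -0.83 to 0.46) and -0.50 log2 for Il1b (95% interval -0.93 to -0.08, limma adjusted p = 0.0841). Nlrp3 differed by 0.12 log2 (95% interval -0.09 to 0.33). Il1b, whose libraries did not overlap, was called lower with totals alone (-0.73 log2, limma adjusted p = 0.0104), with only these 2 groups fitted (adjusted p = 0.0113) and without either untreated WT library (0.0237 and 0.0236). Il18 and Pycard were called higher as well with median-of-ratios scaling and on the rlog table, which gave 7 members. The Il18bp, Casp1 and Gsdmd calls were lost with totals alone, and only 2 members, Il1rn and Casp4, were called without the first WT control library or either KO Poly(I:C) library. Without the second WT control library 3 were called. Over all genes 1562 were higher and 1566 lower, against 764 and 4237 with totals alone (median -0.24).

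Ratios of 2 members within a library need no scaling between libraries and show how the set was composed. They are given per exon base, from exon lengths of 1907 bases for Il1b, 1974 for Il1a, 5535 for Il1rn, 1031 for Il18, 3026 for Il18bp, 1497 for Casp1 and 3710 for Casp4. No test was made on them.

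The ratio of Il1b to Il1a was 10.4 and 7.47 in untreated WT, 9.92 and 8.66 in untreated KO, 11.03 and 11.2 in WT control and 8.67 and 9.14 in KO Poly(I:C) libraries. In KO control libraries it was 62.9 and 67.4, far outside the range of the other 8. In that group Il1b was raised and Il1a, at 16 and 19 deposited units, was not. The ratio of the antagonist Il1rn to Il1b was 3.94 and 2.74 in untreated WT, 2.24 and 2.02 in untreated KO, 0.500 and 0.514 in WT control, 0.812 and 0.722 in KO control and 1.75 and 1.71 in KO Poly(I:C) libraries. The ratio was thus higher in KO Poly(I:C) than in WT control libraries, where Il1rn was lower and Il1b stood at 1067 and 999 CPM against 754 and 703 CPM.

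For the second ligand the ratio of Il18bp to Il18 was lowest in WT control libraries, at 0.462 and 0.577. It was 0.874 and 1.47 in untreated WT, 1.37 and 1.43 in untreated KO, 0.785 and 1.19 in KO control and 0.641 and 0.868 in KO Poly(I:C) libraries. Untreated WT libraries spanned the widest range and overlapped KO control and untreated KO libraries. The ratio of Casp4 to Casp1 was 0.141 to 0.199 in the 6 libraries of untreated cells and KO control, 0.266 and 0.295 in WT control and 0.327 and 0.347 in KO Poly(I:C) libraries. Casp4 thus moved more than its neighbour Casp1 in the last 2 groups.

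**Figure D3:**
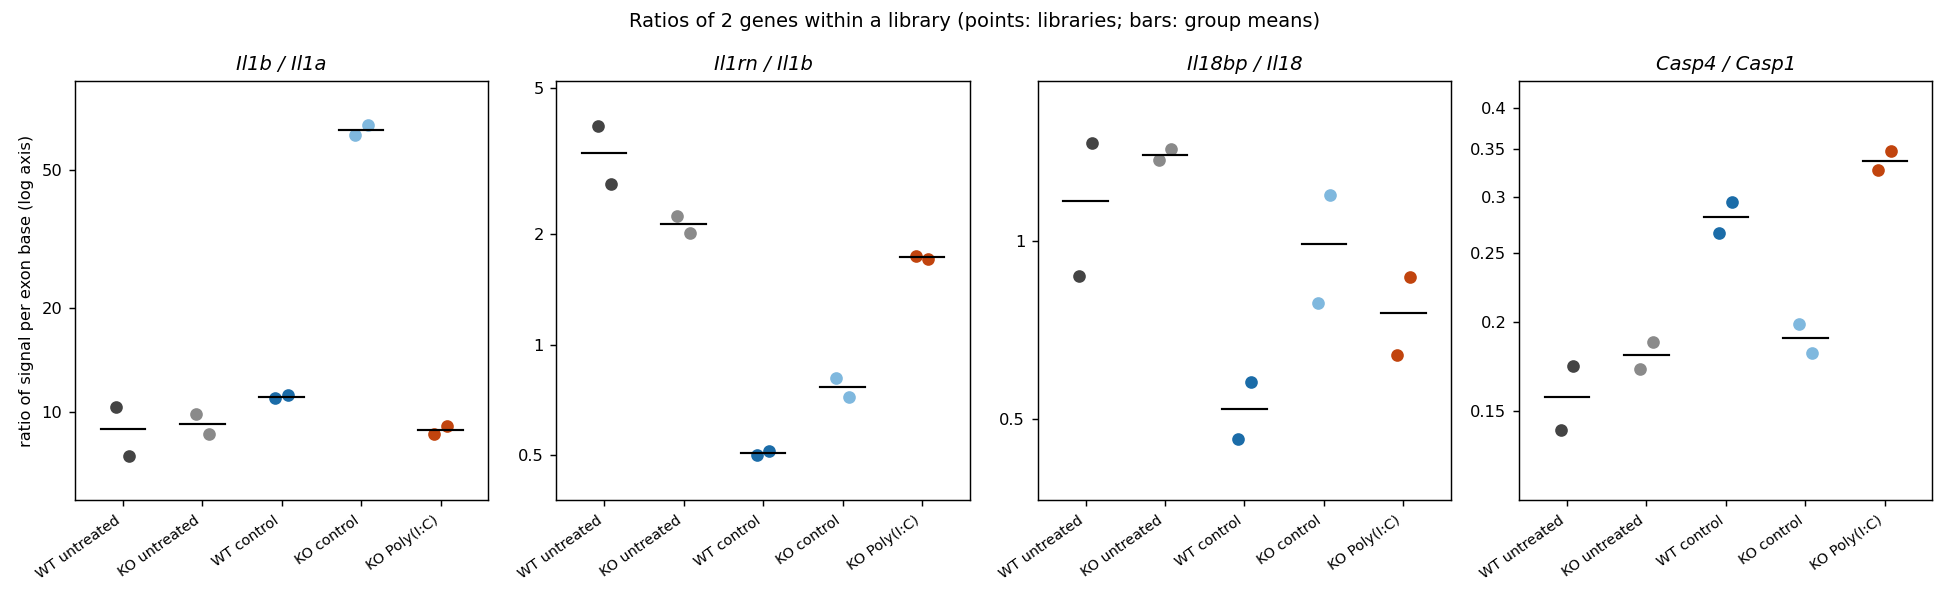
Ratio of 2 genes within each library per exon base (log axis, a separate scale for each pair) by group; points are libraries and bars are group means. Il1b to Il1a stands at 62.9 and 67.4 in KO control and between 7.47 and 11.2 elsewhere, and Il1rn to Il1b is lowest in WT control at 0.500 and 0.514.

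Per kilobase of exon, Casp1 had the highest mean level of the 10 genes in untreated WT (54.2 CPM per kb), untreated KO (41.5) and KO control cells (61.4), Il1b in WT control cells (542) and Il1rn in KO Poly(I:C) cells (661). Il1a was the lowest in the first 3 of these groups. Pycard, second in both untreated groups at 31.5 and 29.2 CPM per kb, was the lowest of the 10 in WT control (21.03) and KO Poly(I:C) cells (25.9).

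Across the 10 libraries, which fall into high and low groups, the log2 levels of the 9 genes other than Pycard correlated pairwise at 0.864 (Il1b and Gsdmd) to 0.995, and those of Pycard with the others at -0.374 to 0.13. The genes whose levels were most like those of Il1b were Syk (Pearson r = 0.998), Abracl (0.997), St3gal1 (0.997), Il4i1 (0.996) and Birc3 (0.996). Those most like Casp4 were Nmi and Dnaja1 (both 0.999), Pcsk7 (0.999), Aida (0.999) and Ppp4r1 (0.999). Syk, a tyrosine kinase, stood at 616 to 697 CPM in untreated, 1549 and 1564 CPM in WT control, 811 and 823 CPM in KO control and 1475 and 1500.5 CPM in KO Poly(I:C) libraries, the same order as Il1b on a narrower scale. These are descriptions over the same 10 libraries used for all values.

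The other genes of the pathway were followed in 6 lists, whose counts stand beside the share of all tested genes called in the same comparison: 65.8% in WT control against untreated WT and 20% in KO control against untreated KO. Of 8 tested further ligands and receptors of the IL-1 family, 4 were higher, 2 lower and 2 did not pass in WT control against untreated WT (median 0.49 log2), a share near the 65.8% of all genes. The decoy receptor Il1r2 rose by 1.34 log2, the IL-18 co-receptor Il18rap by 1.28 and the shared co-receptor Il1rap by 1.26. Levels of Il1r2 were low, from 0.219 and 0.397 CPM (7 and 12 deposited units) in untreated WT to 0.867 and 0.956 CPM in WT control. Sigirr, an inhibitory receptor of the family, fell by 1.85 log2, from 4.01 and 5.76 to 1.202 and 1.31 CPM, and the IL-33 receptor Il1rl1 fell by 1.34 log2, from 0.626 and 0.364 to 0.140 and 0.119 CPM. In KO cells 0 of the 8 passed between control medium and untreated.

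Among 18 other inflammasome sensors and cofactors 8 were higher and 5 lower in WT control (median 0.30 log2, where 33.1% of all genes were higher and 32.8% lower), a share called near that of all genes, which turned to 4 higher and 9 lower with totals alone. The pseudokinase Mlkl, the executor of necroptosis, rose by 2.80 log2, the pyrin gene Mefv by 2.58 and Casp8 by 1.04. The sensor Nlrp1b fell by 2.58 log2, from 14.3 and 12.1 to 1.85 and 2.42 CPM, the ATP-gated channel P2rx7 by 1.31 and the NLRP3-binding Txnip by 1.01. Nlrp1b was at 21.7 and 24.1 CPM in KO control and at 3.53 and 3.49 CPM in KO Poly(I:C) libraries, so it was low in the 2 groups where Nlrp3 was high. In KO cells 1 of the 18 rose and 4 fell with the control medium, against 20% of all genes called, P2rx7 (log2 -0.37) and Txnip (log2 -0.65) among them.

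For membrane rupture, repair and release, 3 of 5 tested genes were higher and 1 lower in WT control (median 0.39 log2, with 65.8% of all genes called), which became 1 and 2 with totals alone. Chmp4b, of the ESCRT machinery that repairs gasdermin pores, rose by 1.54 log2. Vps4b of the same machinery (0.55) and Ninj1, which ruptures the membrane of dying cells (0.39), lost their calls with totals alone, where Ninj1 turned to -0.15. Gsdme, a gasdermin cut by caspase-3, fell by 0.47 log2, a call lost with the deposited scaling (-0.32).

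Of genes that restrain inflammasomes or IL-1 signals, 5 of 8 were higher and 2 lower in WT control (median 1.40 log2, with 65.8% of all genes called). The protease inhibitor Serpinb2 rose by 6.27 log2, from 0.595 and 0.629 to 63.7 and 46.8 CPM, the ubiquitin-editing enzyme Tnfaip3 by 3.53 and Il10 by 2.43. Serpinb1a (-0.53, a call lost with the deposited scaling, at -0.38) and Nlrx1 (-0.50) fell. In KO cells 2 of the 8 rose with the control medium, Tnfaip3 by 0.79 log2 and Il10 by 1.04, and 0 fell, where 20% of all genes were called. Il10 was at 155 and 153 CPM in KO Poly(I:C) libraries, above WT control by 1.45 log2 (limma adjusted p = 8.71e-05).

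The interferon-inducible genes that act with caspase-4 included guanylate-binding proteins, which coat bacterial surfaces. All 11 tested were higher in WT control (median 2.58 log2), lower in KO than in WT control (median -2.42) and higher in KO Poly(I:C) than in KO control (median 3.28). Over all genes 33.1% were higher, 30.2% lower and 32.5% higher in these 3 comparisons. Gbp5 rose by 6.88 log2, Gbp2 by 6.34 and Gbp3 by 5.80 in WT cells. In KO cells 6 of the 11 were higher and 1 lower in the control medium than untreated, where 20% of all genes were called. Gbp2 was up by 1.57 log2, Gbp5 by 1.47 and Gbp3 by 1.39. With totals alone 9 of 11 were higher in WT control and 0 lower.

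Of 12 genes of IL-1 and Toll receptor signalling, 9 were higher and 2 lower in WT control (median 1.09 log2, with 65.8% of all genes called). The NF-kB inhibitor Nfkbia rose by 2.31 log2, the adaptor Myd88 by 2.15 and Nfkb1 by 1.99, while the kinases Irak4 (-0.31) and Irak1 (-0.28) fell, calls that were lost with the deposited scaling (-0.16 and -0.12). In KO cells 6 of the 12 rose with the control medium and 0 fell, where 20% of all genes were called, with Nfkb1 and Myd88 both up by 0.61 log2 and Nfkbia by 0.49. Between untreated KO and WT cells 0 genes of the 6 lists passed, and 2 of the caspase-4 list were called lower with totals alone or the deposited scaling.

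**Figure D4:**
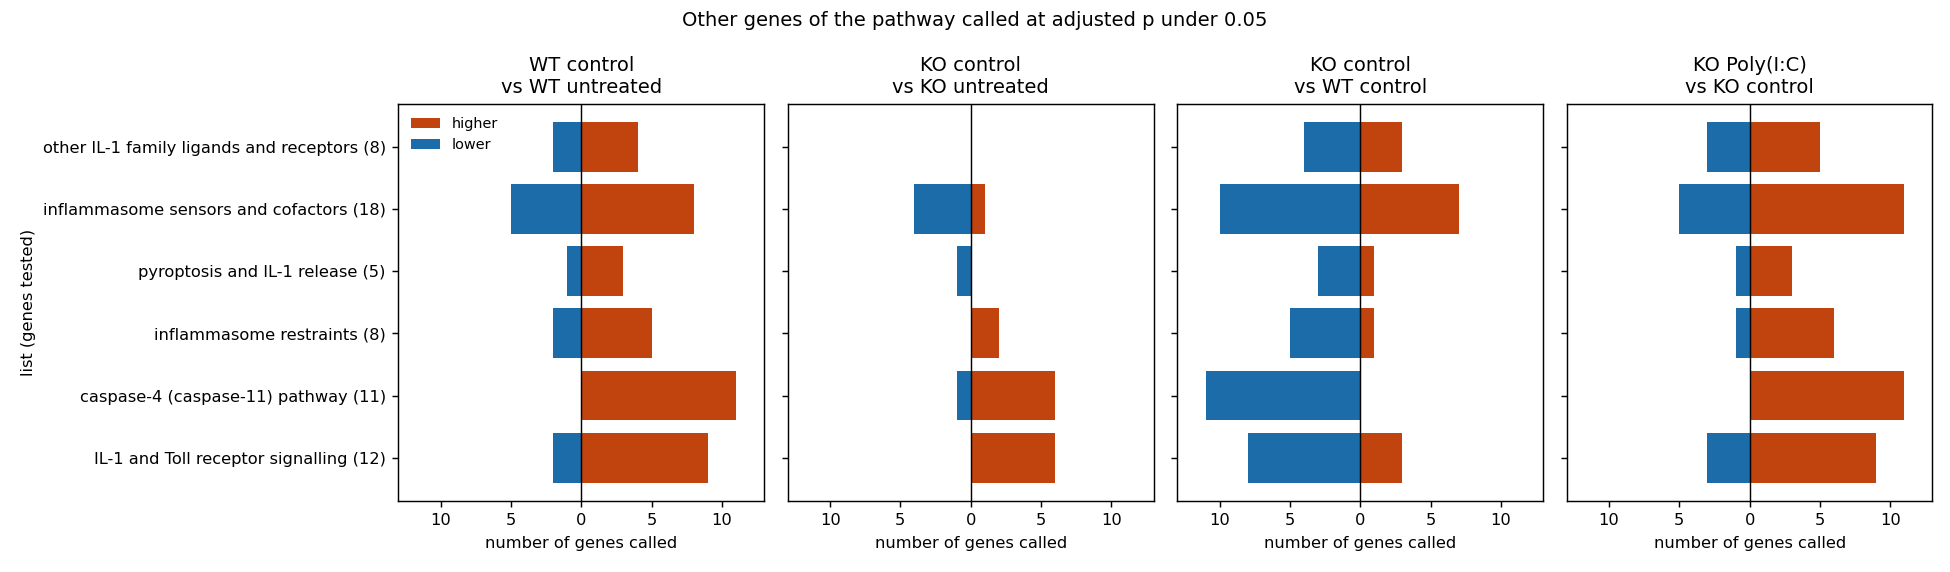
Number of genes of each of the 6 pathway lists called higher (right) or lower (left) at an adjusted p under 0.05, in 4 comparisons, with the number tested in brackets. In KO control against KO untreated, where 20% of all tested genes were called, 0 of 8 further IL-1 family genes pass. In the same comparison 6 of 12 signalling genes are higher, and of 11 caspase-4 pathway genes 6 are higher and 1 lower. All 11 genes of the caspase-4 pathway are higher in WT control and lower in KO control against WT control. With totals alone the split of the sensors in WT control turns from 8 higher and 5 lower to 4 and 9, and that of the release genes from 3 and 1 to 1 and 2; in KO Poly(I:C) against KO control they turn from 11 and 5 to 7 and 8 and from 3 and 1 to 1 and 3.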

How the data were processed

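Macrophage RNA from 10 libraries (5 groups of 2) was measured by stranded mRNA sequencing, per the labels' protocols. Without giving roles, the submitters' processing notes list DESeq2, RSEM 1.2.12, STAR 2.4.0d and Trim Galore 0.2.8. The genome build the authors used: not given in the sources used here. In the table of whole numbers that the authors deposited, values lie on a grid in each library (3 to 14 of the whole numbers from 1 to 30 never occur in 6 libraries), so these values were taken as a signal, not as reads. They also deposited rlog values on a log2 scale, used as an alternative. A count test had been planned and was not run, because whole reads could not be recovered.

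CPM was the signal divided by the library total times its TMM factor. Genes at 10 or more in at least 2 libraries (13171 of 45318) were tested with limma 3.58.1 (R 4.3.3), with a trend, on log2(CPM + 0.1), which understates the change of low genes. The fit had 1 coefficient per group over all 10 libraries (5 residual and 4.82 prior degrees of freedom). Calls were made at a Benjamini-Hochberg adjusted p under 0.05 over all genes, in 8 comparisons. On simulated data for WT control against untreated WT (13090 genes), 99% of 100 genes changed by 1 log2 and 0.109% of unchanged genes were called. The changed genes were few, were drawn from genes well above the filter, and moved equally up and down, with an assumed spread. In the real comparison 65.8% of all genes were called, so the simulation gives no error rate for it or for low genes. Symbols (44585 of 45318), positions and exon lengths are from GENCODE M21 on GRCm38; promoter windows are from RefSeq. The precision per library is set by totals of 25.2 to 51.7 M units, whose relation to reads is not known.

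All 10 members are described, and from each of 6 lists the 3 genes with the largest positive and the 3 with the largest negative difference among those called in WT control against untreated WT. The members were matched by symbol, with no measured value in the rule, but they and the lists were chosen with earlier results of these data known. Alternatives were 3 other scalings, a pseudocount of 1, no filter, only the compared groups, the rlog table, a replicate block and each library left out.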

Additional observations from a re-analysis of the deposited data

Results flagged for a closer look

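The response to the control medium differed between the genotype labels for 9 of the 10 genes, by the interaction term of the limma fit over all genes. In that test 45.7% of all tested genes were called, 23.7% in the same direction as the 9. The KO response minus the WT response was -7.25 log2 for Il1a (SE 0.409), -5.01 for Il1b (SE 0.27), -3.79 for Il1rn (SE 0.13), -2.98 for Il18 (SE 0.155) and -2.39 for Il18bp (SE 0.36). It was -3.72 for Nlrp3 (SE 0.133), -1.49 for Casp1 (SE 0.16), -2.25 for Casp4 (SE 0.131) and -1.38 for Gsdmd (SE 0.108). All 9 were called higher in WT control than in untreated WT, by limma at adjusted p values of 2.12e-05 or less. Of all tested genes 33.1% were called higher in that comparison.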

How the results depend on the processing

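Over 18 alternatives and 8 comparisons, 1375 values of single genes kept their direction and side of the threshold, 39 lost the call, 13 gained one and 13 changed sign. Among called values only Pycard changed sign, in 2 comparisons and with totals alone. With totals alone Pycard was at 0.20 log2 in KO control against WT control, 0.32 in the interaction and -0.13 in KO Poly(I:C) against KO control, and Nlrp3 at -0.11 in KO Poly(I:C) against WT control. With the deposited scaling Pycard was at 0.023 in KO Poly(I:C) against untreated KO. When single libraries were left out, uncalled differences between untreated groups ranged from -0.42 to 0.59 for Il1a, -0.14 to 0.48 for Il1b, -0.30 to 0.52 for Il18bp and -0.11 to 0.18 for Nlrp3, and that of Il18bp between KO control and untreated KO from -0.34 to 0.23. The cause of these changes was not tested. Called members of KO Poly(I:C) against WT control numbered 5, against 3 with totals alone, 3 without the filter, 6 with the deposited scaling, with only these groups or with the replicate block, 7 with median-of-ratios scaling, 7 on the rlog table and 2 to 6 when single libraries were left out. Those of KO control against untreated KO were 3 to 7, and those of untreated KO against WT 0 to 1, when single libraries were left out. The labels tie replicate numbers to no shared culture or day. The correlations of replicate differences over 10 pairs of groups were all positive (0.0128 to 0.315), but not all above 0.1, so the numbers were not taken to pair the samples. A replicate block called 1 member in untreated cells, Il1rn at -0.46 (limma adjusted p = 0.0458), and 99 genes against 22, with 3325 against 2632 in KO control against untreated KO and 3900 against 3128 in KO Poly(I:C) against WT control. Leaving out single libraries gave 11 to 69 called genes there, 1037 to 2830 (2632 with all) in KO control against untreated KO and 1241 to 3355 (3128 with all) in KO Poly(I:C) against WT control, where totals alone gave 5001. The planned edgeR fit was not run, since whole reads could not be recovered. Depth limits Il1a most, at 16 and 19 units in KO control.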
